A study of Callithrix jacchus with 4 samples.

Results

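Callosal projection neurons (CPNs) of the marmoset somatosensory cortex were taken as all nuclei that the deposited table annotates CPN. There were 10119 of them among 36592 retained nuclei (27.7%), and they formed the largest of the 10 annotated cell types. The nuclei came from wild-type common marmosets (Callithrix jacchus), which are New World primates, either newborn (D0) or 2 years old (Y2), with 2 single-nucleus RNA sequencing libraries per age and 1 animal per library. D0 replicates 1 and 2 held 2384 and 4302 CPN nuclei of 6482 and 14142 nuclei. Y2 replicates 1 and 2 held 671 and 2762 of 5622 and 10346. Replicate 1 of each age belonged to batch 1 and replicate 2 to batch 2 in the deposited table. The labels name somatosensory cortex as the tissue, while their protocol text also mentions motor cortex and describes the nuclear extraction for a cerebellum. The authors had named the types from marker genes. CUX2, the transcription factor that marks upper-layer callosal neurons, could not be checked because gene values were not used here, so CPN names the deposited annotation throughout.

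Callosal neurons are excitatory pyramidal neurons whose axons cross the corpus callosum to the opposite hemisphere, and most of them lie in the upper cortical layers. They serve associative functions by linking matching areas of both sides. The other excitatory types of the annotation have other targets. Layer IV neurons receive thalamic input and act within the local circuit, subcerebral projection neurons (ScPN) of layer 5 send axons to the brainstem and spinal cord, and corticothalamic projection neurons (CthPN) of layer 6 send axons to the thalamus.

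The 6 CPN clusters almost completely separated the ages. Clusters 1, 5, 7 and 30 held D0 nuclei only, cluster 23 held Y2 nuclei only, and cluster 0 was led by Y2 but also held D0 nuclei. Both of the largest clusters of the whole table, 0 (3127 nuclei) and 1 (2732 nuclei), were CPN clusters. Per the study's methods, libraries of both ages were pooled and corrected for batch before clusters were formed. Cluster membership does not measure how far the neurons of the ages differed.

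Cluster 1 was the largest neonatal CPN cluster in both animals. It held 851 nuclei of D0 replicate 1 and 1881 of D0 replicate 2, which were 35.7% (95% Wilson interval 33.8 to 37.6) and 43.7% (42.2 to 45.2) of the CPN nuclei of these libraries. These intervals reflect the number of nuclei only and carry nothing of the variation among animals. As a share of all projection neurons, cluster 1 was 19.1% and 19.8% in the 2 D0 libraries, so that it differed by 0.687 percentage points between animals. Cluster 7 was similarly stable on that scale, at 12.5% and 13.5% of projection neurons (555 and 1286 nuclei). Both clusters thus took nearly the same part of the projection neurons in either newborn. Among CPN nuclei, cluster 7 was 23.3% (21.6 to 25.0) and 29.9% (28.5 to 31.3) in D0 replicates 1 and 2. On this second scale clusters 1 and 7 differed by -8.03 and -6.61 points (replicate 1 minus 2), against 7.63 for cluster 5. The stability thus held for shares of projection neurons only.

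Cluster 5 was larger in D0 replicate 1. It held 786 and 1090 nuclei in D0 replicates 1 and 2, which were 17.7% and 11.5% of projection neurons and 33.0% (31.1 to 34.9) and 25.3% (24.1 to 26.7) of CPN nuclei. Cluster 30 was nearly confined to D0 replicate 1, with 173 nuclei against 10 in D0 replicate 2, or 7.26% (6.28 to 8.37) against 0.232% (0.126 to 0.427) of CPN nuclei. CPNs made up 53.6% and 45.3% of projection neurons in the D0 libraries, a gap of 8.26 points. Clusters 5 and 30 differed by 6.18 and 3.78 points in the direction of that gap, while clusters 1 and 7 differed by 0.687 and 1.07 points in the other direction.

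In the adults, Y2 replicate 2 placed all 2762 of its CPN nuclei in cluster 0, whereas Y2 replicate 1 placed 311 there and 360 in cluster 23. Cluster 0 was thus 100% of CPN nuclei in replicate 2 and 46.3% (42.6 to 50.1) in replicate 1. Cluster 23 was found in 0 of 2762 CPN nuclei of Y2 replicate 2, which allows a share of up to 0.109%, against 53.7% (49.9 to 57.4) in Y2 replicate 1. Over projection neurons, cluster 0 was 6.22% in Y2 replicate 1 and 31.9% in Y2 replicate 2, a 5.13-fold difference between animals of 1 age. With cluster 23 included, all CPNs were 13.4% and 31.9%, a 2.38-fold difference.

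**Figure D1:**
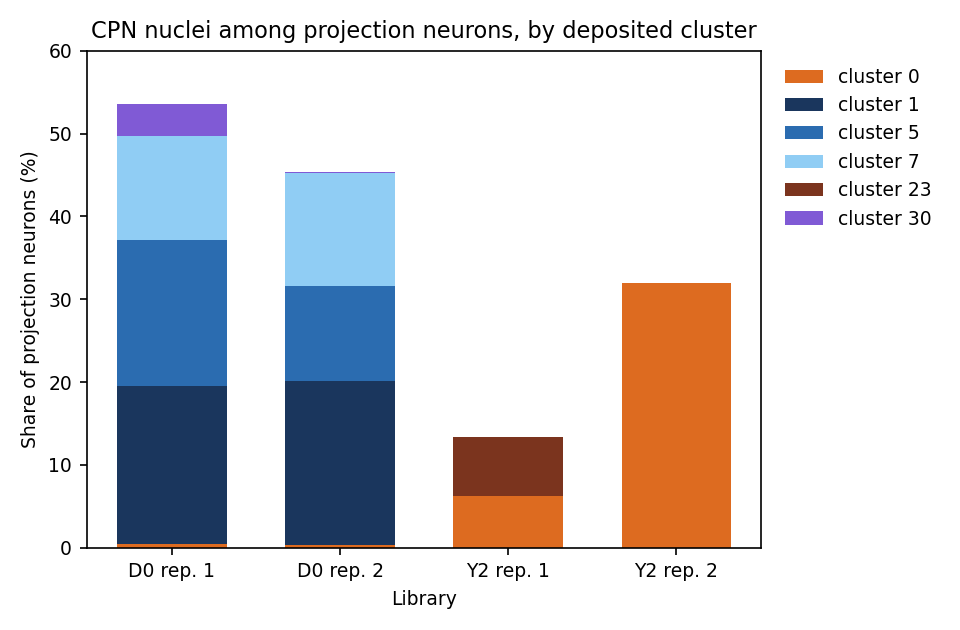
Share of projection neurons (%, y axis) annotated CPN in each library (x axis), stacked by deposited cluster. Clusters 1 and 7 take similar heights in the 2 D0 libraries, cluster 30 is visible mainly in D0 replicate 1, and cluster 23 appears only in Y2 replicate 1, where all CPNs reach 13.4% against 31.9% in Y2 replicate 2.

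Library-specific clusters were defined by 90% or more of a cluster coming from 1 library of its leading age, with libraries weighted equally by their nuclei of the type. Of the 6 CPN clusters 2 met this limit, cluster 23 at 100% and cluster 30 at 96.9%, and the same 2 were found at limits of 80% and 95%. Among the 23 projection neuron clusters only 1 other met it, cluster 26 of Layer IV, which held 253 nuclei of Y2 replicate 1 and 0 of Y2 replicate 2. Of ScPN (7 clusters) and CthPN (6 clusters) 0 met it. Clusters 23 and 26 together held 613 nuclei, 12.3% of the projection neurons of Y2 replicate 1. In the deposited table each age and batch had 1 library, so the animal, the batch and the library cannot be told apart as the origin of these clusters. The study's methods list more libraries for batch 1 than the table holds. With nuclei unweighted, cluster 0 came to 89.9% from Y2 replicate 2, just under the limit, and Y2 replicate 2 held 2762 of the 3433 CPN nuclei of that age. Unweighted, 3 CPN clusters met a limit of 80%, 2 a limit of 90% and 1 a limit of 95%. Of all 34 clusters, 9, 6 and 3 met these unweighted limits.

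A small number of neonatal CPN nuclei lay in the adult cluster. Of the 3127 nuclei of cluster 0, 54 were of D0 (1.73%). They were 19 of 2384 CPN nuclei in D0 replicate 1 (0.797%, 95% Wilson interval 0.511 to 1.24) and 35 of 4302 in D0 replicate 2 (0.814%, 0.586 to 1.13). These shares agreed within counting error although the libraries belonged to different batches. The reverse was not detected: 0 of 671 and 0 of 2762 Y2 CPN nuclei lay in a D0 cluster, which allows shares of up to 0.447% and 0.109%. Among CthPNs, the only other projection neurons with a cluster of both ages, 8 of 336 (2.38%, 1.21 to 4.63) and 68 of 938 (7.25%, 5.76 to 9.09) D0 nuclei lay in cluster 17, led by Y2. The share in the adult cluster was thus lower for CPNs than for CthPNs in both D0 libraries, a difference that was not tested. The intervals reflect the number of nuclei only. They lay far apart in D0 replicate 2 and just overlapped in D0 replicate 1 (upper end 1.24 for CPNs, lower end 1.21 for CthPNs). Layer IV and ScPN had 0 such nuclei in each of the 4 libraries.

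The number of CPN clusters was larger in the neonates. Each D0 library held CPN nuclei in 5 clusters, Y2 replicate 1 in 2 and Y2 replicate 2 in 1. When each library was reduced by calculation to the 671 CPN nuclei of the smallest, the expected number was 5.00 and 4.81 at D0. The calculation drew from clusters already formed on all nuclei. It therefore cannot tell how many clusters would have formed from equal numbers of nuclei. The effective number of clusters, the exponential of the Shannon entropy, counts how many equally filled clusters would give the observed spread. It was 3.68 ± 0.0391 and 3.08 ± 0.0222 in D0 replicates 1 and 2 and 1.99 ± 0.00562 in Y2 replicate 1 (counting SE), and 1 by definition in Y2 replicate 2. The D0 mean was 3.38 ± 0.424 (SD, n = 2), and the Y2 mean 1.50 ± 0.703 (SD, n = 2). The difference was -1.68 in batch 1 and -2.08 in batch 2, and the libraries of the 2 ages did not overlap. In the two-sided exact permutation test p was 0.33, which is the lowest that this design of 2 libraries per age can give, so it cannot reach the threshold. The ages did not overlap for Layer IV, ScPN or CthPN either, so the lack of overlap was not particular to CPNs.

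Evenness, the effective number divided by the number of clusters in the library, was 0.735 and 0.615 in D0 replicates 1 and 2 and 0.997 in Y2 replicate 1. The D0 values were held down by clusters with few nuclei, cluster 0 in both libraries and cluster 30 in replicate 2. The near-even value of Y2 replicate 1 came from the split of its CPN nuclei between the library-specific cluster 23 and cluster 0. Without library-specific clusters each Y2 library would hold 1 CPN cluster.

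The other projection neuron types had different numbers of clusters by age. Layer IV neurons formed 1 cluster at D0 and had effective numbers of 2.63 and 1.93 in Y2 replicates 1 and 2. ScPNs reached 1.81 and 2.44 at D0 and 2.53 and 2.88 at Y2. CthPNs reached 3.15 and 3.25 at D0 and 2.33 and 2.38 at Y2, so their difference had the direction of the CPN difference at a smaller size (-0.819 in batch 1 and -0.880 in batch 2). Of the 4 types, CPNs had the most neonatal clusters (4 led by D0, against 2 led by Y2), while Layer IV had more adult clusters (1 against 3). The lead of CPNs rested on the library-specific cluster that was nearly confined to D0 replicate 1. ScPNs and CthPNs had 3 clusters led by D0 each, and without that cluster CPNs would not exceed them. These numbers follow the clustering settings of the authors. CPNs averaged 1687 nuclei per cluster and CthPNs 678, with 6 clusters each. Whether the number of nuclei of a type affected its number of clusters was not tested.

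**Figure D2:**
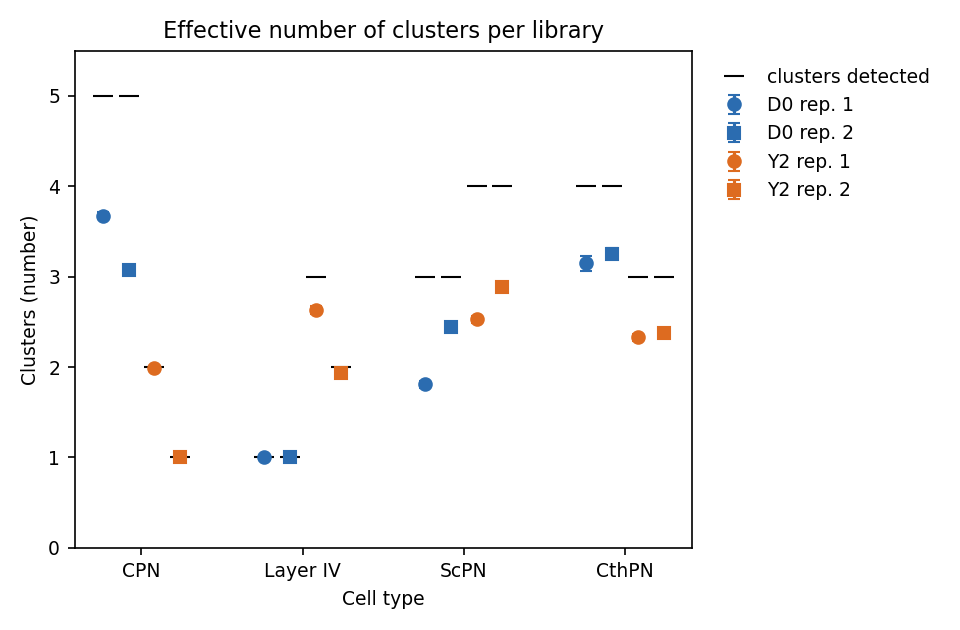
Number of clusters (y axis) for the 4 projection neuron types (x axis) in each library. Blue marks D0 and orange Y2, circles mark batch 1 and squares batch 2. Points are effective numbers with counting SE as bars and black dashes are clusters detected. CPN values lie at 3.68 and 3.08 for D0 and reach only 1.99 and 1 for Y2, while Layer IV lies at 1 in both D0 libraries and higher at Y2.

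How alike the animals of an age were was measured as the overlap of their cluster shares, the sum over clusters of the smaller share. For CPNs the overlap was 85.3% between the D0 libraries. Between the Y2 libraries it was 46.3%, below Layer IV (65.5%), ScPN (88.3%) and CthPN (97.7%). The D0 overlap of CPNs lay between those of ScPN (79.4%) and CthPN (89.7%). The position of CPNs among the 4 types at Y2 rested on cluster 23. Without the library-specific clusters both Y2 libraries held CPN nuclei in cluster 0 only, so their overlap was 100% by construction, the highest of the 4 types, while Layer IV reached 82.5% and the D0 overlap of CPNs was 89.8%. With 1 pair of libraries per age, these overlaps are values without a test.

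The next question was how the number of CPNs compared with the other projection neurons at each age. CPNs were 53.6% (95% Wilson interval 52.1 to 55.0) and 45.3% (44.3 to 46.3) of projection neurons in D0 replicates 1 and 2, and 13.4% (12.5 to 14.4) and 31.9% (30.9 to 32.9) in Y2 replicates 1 and 2. They were the most numerous of the 4 types in both D0 libraries and in Y2 replicate 2, and the least numerous in Y2 replicate 1. The odds of a projection neuron being a CPN were 3.63 times higher at D0, with a 95% interval of 1.25 to 10.5. The difference did not pass after adjustment over the 4 types (limma, adjusted p = 0.0933). The limma fits of these shares pooled the spread over the 4 types, whose shares add up to a whole and are not independent. Their intervals and p-values thus do not rest on the spread of CPNs alone. Of these 4 types, 0% were called, with 2 at an unadjusted p under 0.05 and 0 by the quasi-binomial model. Over all nuclei the odds were 2.27 times higher at D0 (0.639 to 8.06). The difference did not pass (limma, adjusted p = 0.223), where 30% of the 10 types were called. Counting Layer IV as CPN changed the log-odds difference (Y2 minus D0) over projection neurons from -1.29 to -0.953 (limma, adjusted p = 0.167). Over all nuclei it changed from -0.819 to -0.356 (limma, adjusted p = 0.562). Whether the boundary between the 2 labels moved with age was not tested. Without Y2 replicate 2 the CPN share of projection neurons passed (limma, adjusted p = 0.00511), and without Y2 replicate 1 the log-odds difference (Y2 minus D0) was -0.73 (limma, adjusted p = 0.0797) against -1.29 with all libraries. Shares are of retained nuclei, and fewer CPNs in the tissue cannot be told apart from fewer CPN nuclei released or retained.

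A ratio of CPNs to 1 other type does not depend on how many nuclei of further types were captured. The ratio of CPNs to Layer IV neurons, their neighbours below the upper layers, was 3.66 (95% interval 3.35 to 3.99) and 2.49 (2.35 to 2.63) in D0 replicates 1 and 2. In Y2 replicates 1 and 2 it was 0.914 (0.823 to 1.02) and 1.19 (1.13 to 1.26). Newborn libraries held several CPN nuclei for each Layer IV nucleus and adult libraries about equal numbers, and the ages did not overlap. The D0 ratio was 4.00-fold that of Y2 in batch 1 and 2.09-fold in batch 2. The replicates were close, with a 1.47-fold difference between the D0 libraries and a 1.30-fold difference between the Y2 libraries. The mean log2 ratio was 1.59 ± 0.39 (SD, n = 2) for D0, against 0.06 ± 0.27 (SD, n = 2) for Y2, and the difference of -1.53 exceeded the spread between replicates (exact permutation test, two-sided, p = 0.33).

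The ratio of CPNs to ScPNs, the layer 5 output neurons, was 2.21 (2.06 to 2.38) and 1.70 (1.62 to 1.79) at D0, and 0.325 (0.298 to 0.354) and 1.20 (1.13 to 1.27) at Y2. The ages did not overlap, but Y2 replicate 2 lay closer to D0 replicate 2 than to the other adult. The D0 ratio was 6.81-fold that of Y2 in batch 1 and 1.42-fold in batch 2, and the Y2 libraries differed 3.69-fold from each other. The log2 difference of -1.64 stood against an SD of 1.33 between the Y2 libraries (n = 2, exact permutation test, p = 0.33).

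The ratio of CPNs to CthPNs, the layer 6 neurons that project to the thalamus, had the widest range. It was 7.10 (6.33 to 7.95) and 4.59 (4.27 to 4.92) at D0, and 0.439 (0.401 to 0.481) and 2.18 (2.04 to 2.33) at Y2. The D0 ratio was 16.2-fold that of Y2 in batch 1 and 2.11-fold in batch 2, and the Y2 libraries differed 4.96-fold. The log2 means were 2.51 ± 0.45 (SD, n = 2) and -0.03 ± 1.63 (SD, n = 2), with a difference of -2.54 (exact permutation test, p = 0.33). Y2 replicate 1 was the lowest library in all 3 ratios.

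**Figure D3:**
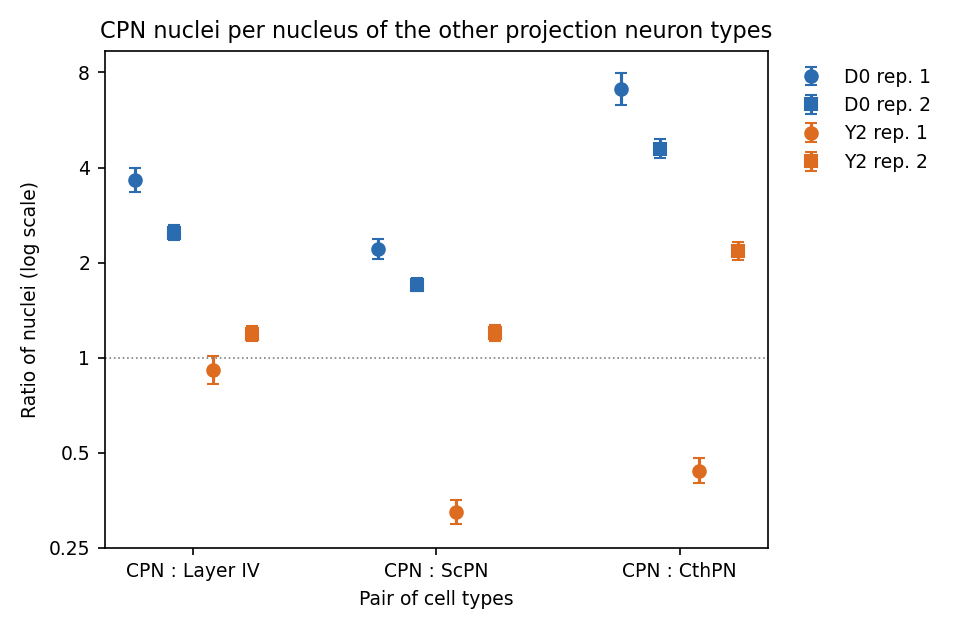
Ratio of CPN nuclei to nuclei of each other projection neuron type (y axis, log scale) for the 3 pairs (x axis) in each library. Blue marks D0 and orange Y2, circles mark batch 1 and squares batch 2, and bars are 95% Wilson intervals. The Y2 libraries lie close together for Layer IV (0.914 and 1.19) and far apart for CthPN (0.439 and 2.18), below both D0 libraries in each pair.

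All 3 ratios separated the ages without overlap, but so did 77.8% of the 45 ratios between the 10 cell types, so this was not particular to CPNs. Fitted over all 45 ratios with limma, none of the 3 passed (adjusted p = 0.178 for Layer IV, 0.213 for ScPN and 0.122 for CthPN), where 28.9% of ratios were called. The fitted D0 over Y2 folds were 2.89 for Layer IV (95% interval 0.747 to 11.2), 3.11 for ScPN (0.564 to 17.1) and 5.83 for CthPN (0.874 to 38.8). With the replicate block, which compares the ages within batches, the CthPN ratio passed (adjusted p = 0.0323, 95% interval of the fold 1.40 to 24.3) and the other 2 did not, where 57.8% of the 45 ratios were called. Without Y2 replicate 2 the ratios to ScPN and CthPN passed (limma, adjusted p = 0.0408 and 0.0219), where 55.6% were called. Without Y2 replicate 1 the log2 differences were -0.70 for ScPN and -1.39 for CthPN and did not pass (limma, adjusted p = 0.485 and 0.228), where 22.2% were called, so the size of both differences depended on that library. The 45 ratios are built from 10 counts and are not independent, so their shared spread rests on fewer values than their number.

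The library-specific clusters held a large part of the CPN nuclei of Y2 replicate 1, so that leaving them out had to lower its ratios to ScPN and CthPN. Without clusters 23, 26 and 30 its ratios were 0.647 to Layer IV, 0.150 to ScPN and 0.204 to CthPN, and CPNs became 7.09% (6.37 to 7.89) of its projection neurons. The D0 ratios became 3.39 and 2.48 to Layer IV, 2.05 and 1.70 to ScPN, and 6.58 and 4.58 to CthPN. The Y2 libraries then differed 1.84-fold, 7.96-fold and 10.7-fold for Layer IV, ScPN and CthPN.

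Set against inhibitory interneurons, the GABAergic neurons of local circuits, CPNs did not separate the ages. The ratio of CPNs to all interneurons was 1.36 and 1.47 for the newborns and 1.11 and 2.11 for the adults, in the order of the replicates. The Y2 libraries lay on either side of the D0 libraries (log2 difference 0.11, exact permutation test, p = 1), and this sum was formed after the data were seen. For single interneuron types the order differed. The ratio to Inh_Pvalb, named for parvalbumin, was 5.53 and 5.40 at D0 and 1.98 and 4.07 at Y2. The ratio to Inh_Sst, named for somatostatin, was 3.39 and 3.26 at D0 and 4.86 and 9.33 at Y2, and the ratio to Inh_Vip, whose name refers to vasoactive intestinal peptide, was 3.86 and 5.35 at D0 and 12.9 and 15.5 at Y2. The ratios to Inh_Pvalb, Inh_Sst and Inh_Vip did not pass (limma over the 45 ratios, adjusted p = 0.357, 0.33 and 0.151). Inh_Lamp5 was annotated at Y2 only, where the ratio was 8.95 and 17.9.

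Against glia, the CPN ratio varied widely between libraries of the same age, except against oligodendrocyte precursor cells at D0. It was 27.7 and 3.22 to astrocytes at D0 and 41.9 and 8.34 at Y2, so that batch 1 lay above batch 2 at both ages. Its ratio to oligodendrocyte precursor cells (OPC) was 12.4 and 10.9 at D0, and 336 and 49.3 at Y2, where the first value rests on 2 OPC nuclei (95% interval 91.9 to 1225). The OPC ratio passed with the replicate block (limma, adjusted p = 0.00704) but not without it (0.0611). Of the 9 ratios of CPNs to another type, 1 passed without the block, where 28.9% of all 45 ratios were called. It was the ratio to Inh_Lamp5, where the D0 ratios depend on the 0.5 nuclei added to counts of 0. With the block 3 passed (Inh_Lamp5, OPC and CthPN), where 57.8% of the 45 ratios were called.

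**Figure D4:**
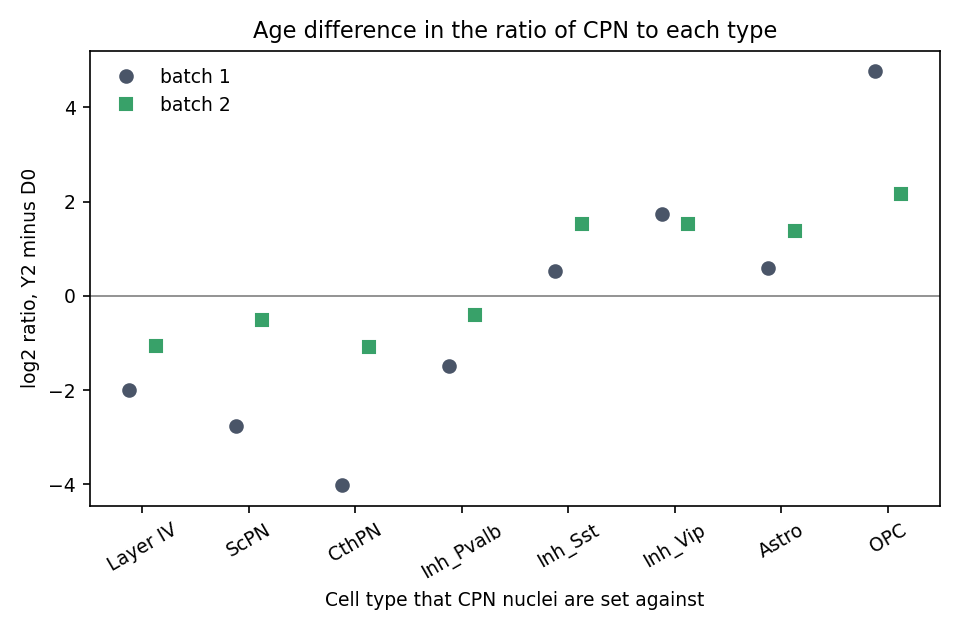
Difference between Y2 and D0 in the log2 ratio of CPN nuclei to each other cell type (y axis) within batch 1 (circles) and batch 2 (squares), by type (x axis). Differences are negative in both batches for Layer IV, ScPN, CthPN and Inh_Pvalb and positive in both for Inh_Sst, Inh_Vip, astrocytes and OPC, and Inh_Lamp5 is left out because no D0 nucleus carries that label.

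Barcodes found in more than 1 library were about as frequent among CPN nuclei as among other nuclei. Of 35937 distinct barcodes 652 (1.81%) occurred in more than 1 library. Of CPN nuclei 366 (3.62%) carried such a barcode, and of all other nuclei 3.55%. The share was 6.39% in cluster 23 (23 nuclei) and 5.46% in cluster 30 (10 nuclei), and 2.96% to 4.09% in clusters 0, 1, 5 and 7. The clusters drew on libraries of different sizes and no rate per library was calculated. These shares therefore cannot be compared directly, and their difference was not tested.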

How the data were processed

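Single-nucleus RNA-seq libraries were made by the authors from frozen tissue, with DAPI-positive nuclei sorted to remove debris. Cell Ranger 2.1.0 counted each library with a marmoset reference of unspliced transcripts. The libraries were thinned to equal complexity, filtered by detected genes, corrected for batch with canonical correlation analysis in Seurat, stripped of nuclei that this correction explained poorly, clustered, and named from marker genes. How doublets were treated is not stated in the sources consulted. The gene minimum and the batch filter can remove types unequally.

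The deposited table lists labels (age, replicate, batch, cluster and type) of single nuclei and no counts per gene, so depth per nucleus was not analysed here. Precision was set by nuclei per library. Replicates followed the sample descriptions, since titles number some libraries differently. Only 4 libraries were analysed here, fewer than the methods list. Replicate numbers coincided with the deposited batch, which pairs the libraries. Deviations of same-numbered libraries from their age means correlated at r = 0.437 over 10 types and r = -0.623 over the 4 projection neuron types.

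Shares were compared with limma 3.58.1 (R 4.3.3) on logits after adding 0.5 nuclei, two-sided, with Benjamini-Hochberg adjustment and a threshold of 0.05. Among the 4 projection neuron types limma pooled the spread completely. Single ratios and effective numbers were compared by exact permutation tests (scipy 1.17.1, Python 3.11.15), which cannot give p below 0.33 here. Intervals of shares and ratios are 95% Wilson intervals, and a count of 0 was given a limit of 3 counts. The limma fit of shares was tested on simulated data with less spread between libraries than the Y2 libraries showed, so the test does not cover the observed spread. All CPN clusters were named; clusters of other types were named where library-specific or holding both ages. The cell type, its clusters and the comparisons were chosen with earlier results of these data known.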

Additional observations from a re-analysis of the deposited data

Results flagged for a closer look

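The log2 ratio of CPNs to all interneurons differed between the ages in opposite directions in the 2 batches, by -0.29 in batch 1 and 0.52 in batch 2 (Y2 minus D0). Each batch held 1 library per age among those analysed, and the difference between batches was not tested.

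The effective number of clusters differed between ages in opposite directions for CPNs and for 2 other projection neuron types, in both batches. The difference (Y2 minus D0) was -1.68 and -2.08 for CPNs in batches 1 and 2, against 1.63 and 0.933 for Layer IV and 0.719 and 0.442 for ScPNs. The difference between the types was not tested.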

How the results depend on the processing

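Of 76 alternative values, 41 came from tests that could reach the threshold. Of these, 37 kept the direction and the side of the threshold and 4 passed where the reported value did not. For the ratios to Layer IV, ScPN and CthPN the reported value was an exact test that cannot pass. Their limma alternatives were thus set against a side fixed by the design. Neither keeping nor leaving that side speaks to stability. The remaining 35 of the 76 were exact tests bound by their smallest p, or values with no test, and say nothing about significance. The CPN share of projection neurons ranged from -1.84 to -0.73 in log odds with a library left out, and passed without Y2 replicate 2 (limma, adjusted p = 0.00511). The CPN share of all nuclei ranged from -1.31 without Y2 replicate 2 to -0.33 without Y2 replicate 1 (adjusted p from 0.0931 to 0.782, limma). With a library left out the log2 ratio to Layer IV ranged from -1.81 to -1.25, that to ScPN from -2.58 to -0.70 and that to CthPN from -3.70 to -1.39, with the ends of both ranges set by leaving out Y2 replicate 2 or 1. In these fits 1 age has a single library, which is assumed to vary like the others. With the replicate block the log2 ratio to CthPN was -2.54 (limma, adjusted p = 0.0323), a fit added after the data were seen. For the CPN share of projection neurons the replicate block gave -1.29 (limma, adjusted p = 0.227). The block changed no other call on the CPN share or on the ratios to the 3 projection neuron types. The exact sign-flip test over the 2 pairs cannot give p below 0.5. The log2 ratio to interneurons changed sign without library-specific clusters (-0.38) and ranged from -0.35 to 0.58 with a library left out. The effective number difference ranged from -2.38 to -1.38 with a library left out, was -1.65 by the inverse Simpson index and was -3.41 as clusters expected at equal nuclei. The ratios to summed ScPN and CthPN (log2 difference -1.93) ranged from -2.95 to -0.90. The number of library-specific CPN clusters was 2 at weighted limits of 80%, 90% and 95% and at an unweighted limit of 90%, but 3 and 1 at unweighted limits of 80% and 95%. With 2 libraries per age, only differences well above the spread between animals could be shown.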
